A study of Mus musculus with 60 samples.

Results

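The kidneys of cKOt and control mice were compared at zeitgeber time 12 (ZT12), the hour at which the lights go off and mice become active. The 10 libraries labelled ZT12, 5 of the cKO genotype and 5 of the control genotype, were taken from a set of 60 male mice, in which 5 mice of each genotype were killed every 4 h. The cKOt mice (Bmal1lox/lox/Pax8-rtTA/LC1 Cre) carried floxed alleles of Bmal1, the clock gene listed here as Arntl, with a doxycycline-dependent activator driven by the Pax8 promoter along the renal tubule and an inducible Cre. Their control littermates (Bmal1lox/lox) carried the floxed alleles without the activator or Cre. Both genotypes were on a C57BL/6J background and drank doxycycline for 2 weeks from 8 weeks of age, and kidneys were taken 4 weeks later. The transgenes and the recombination differ together between the groups and cannot be told apart. The labels name the tissue as renal tubule, whereas the methods describe frozen pieces of whole kidney. In the libraries, 6 podocyte markers summed to 308 to 350 CPM (counts scaled to a common library total) and 7 endothelial markers to 454 to 506 CPM, beside 48400 to 68400 CPM for 14 proximal tubule markers, so transcripts of non-tubular cells were present in every sample.

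The circadian clock is a feedback loop in which BMAL1, paired with CLOCK or NPAS2, binds E-box sequences and activates the Per and Cry genes, whose products then repress it. A second loop consists of the nuclear receptors REV-ERB (Nr1d1 and Nr1d2), which repress Arntl and Npas2, and ROR, which activate them through the same element. The PAR bZIP factors DBP, TEF and HLF, and their antagonist NFIL3, carry the rhythm to D-box sequences in many genes of metabolism, detoxification and transport. In the tubule, these genes meet a demand for energy that is covered mainly by fatty acid oxidation.

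Counts on genes ranged from 18145854 to 19202421 per ZT12 library. The first principal component of the ZT12 libraries took 32.8% of the variance and separated the genotypes. Among the mice, 2 are described here because results below depend on them, and other mice deviated as well. Control replicate 3 was the highest control for 6 of the 19 clock genes tested (Arntl, Clock, Cry1, Nfil3 and Npas2 among them) and the lowest for 8 (Bhlhe41, Ciart, Cry2, Dbp, Nr1d1, Nr1d2, Per3 and Tef). Control replicate 1 was the highest for 7 of the 19 and the lowest for 1. Over 13754 genes, control replicate 4 was the mouse most often set apart, as the highest for 300 and the lowest for 122. The cKOt replicate 3 was the highest cKOt kidney, set apart from the rest of its group, for 9 of 27 PPAR receptors and targets. Over the 13754 genes this held for 140, and the PPAR list was chosen with earlier results of these data known. In this kidney the proximal tubule markers summed to 48400 CPM, the lowest of the 10, and 11 injury markers to 1230 CPM, against 645 to 826 CPM in the others. Calls of named genes that were lost without either mouse are given as such.

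At ZT12, 3271 of 15546 tested genes (21.0%) differed between genotypes at an adjusted p below 0.05 in edgeR's quasi-likelihood test. Of these, 1599 (10.3%) were higher in cKOt kidneys and 1672 (10.8%) were lower. Counts of called members in the gene lists below are to be read beside these shares. Most of the differences were small. The median absolute log2 difference of the called genes was 0.35, while 213 genes (1.37%) rose and 194 (1.25%) fell by more than 2-fold. Of all tested genes, 14.1% were called and also had a fitted fold change above 1.2, with 7.47% higher and 6.58% lower. The 5 cKOt and 5 control kidneys did not overlap for 9.73% of genes, with 5.06% higher and 4.67% lower in cKOt. The sample titles give no batch. By the batch codes used here, each of the 5 batches at ZT12 held 1 control and 1 cKOt mouse. Of the called genes, 2216 (67.7%) had the same sign in 5 of 5 batches. These signs come from the same mice that gave the calls, so this share describes the called genes and is no independent check. ZT12 had more called genes than any other time, from 1884 at ZT0 to 3095 at ZT8. Of its 3271 genes, 673 (20.6%) were called in the same direction at the other 5 time points and 681 (20.8%) at none of them. The ZT12 difference itself departed from the mean difference of the other 5 times for 214 genes (1.38%), in the positive direction for 132 (0.849%) and in the negative direction for 82 (0.527%). The time points were sampled from different mice.

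Most of the clock genes tested changed. Among the activators, 4 of 5 tested genes were higher in cKOt kidneys and none lower. Arntl, on chromosome 7 (113207465 to 113314126, plus strand, GRCm38), was the target of the deletion. In replicate order it was counted at 2.32, 1.93, 5.51, 2.12 and 1.97 CPM in control and at 20.1, 17.5, 14.7, 16.4 and 18.1 CPM in cKOt kidneys. The groups did not overlap, and the difference of 2.64 ± 0.26 (log2, SE) was towards more Arntl in the mice in which it was deleted (adjusted p = 4.4e-12). Counting covered all exons, transcripts that lack only the floxed part are included, and at this hour the level of Arntl does not check the deletion. Control kidneys were then near the low point of their daily course, with 48.4 ± 10.2 CPM at ZT0, 2.73 CPM at ZT8 and 2.77 ± 1.54 CPM at ZT12 (SD, n = 5), while the cKOt means ranged from 17.4 to 24.4 CPM over the 6 time points. Without control replicate 3 the log2 difference was 3.04.

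Npas2, which can replace its paralog CLOCK, showed the widest separation of the clock genes. It stood at 0.755, 1.02, 1.29, 0.517 and 0.731 CPM in control kidneys and at 40.1, 49.4, 38.3, 47.9 and 41.0 CPM in cKOt kidneys, a log2 difference of 5.67 ± 0.30 (adjusted p = 7.82e-22). Clock rose from 86.3 ± 11.2 to 129 ± 20.0 CPM (mean ± SD, n = 5, here and in what follows), with no overlap. Rora was at 105 ± 17.6 and 99.1 ± 17.5 CPM and was not called.

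Of 10 repressors, 6 were lower, 2 were higher and 2 were not called, with a median log2 difference of -0.66 against 0.00276 over all tested genes. Ciart, Nr1d2 and Per3 fell most. Ciart, a repressor of CLOCK-BMAL1, was at 28.1, 23.7, 12.9, 23.5 and 19.0 CPM in control and at most 2.91 CPM in cKOt kidneys, and fell by 3.05 ± 0.28 on the log2 scale. Nr1d2 was at 266, 257, 235, 302 and 263 CPM in control and at 65.3, 61.8, 59.2, 51.4 and 79.3 CPM in cKOt kidneys (log2 difference -2.11 ± 0.14, adjusted p = 2.88e-18). Per3 fell from 74.2 ± 5.38 to 24.3 ± 1.87 CPM. None of these 3 overlapped between groups. Nr1d1 fell from 23.6 ± 8.22 to 12.1 ± 2.59 CPM with overlap, since control replicate 3 had only 13.2 CPM. Bhlhe40, which encodes the E-box competitor DEC1, fell from 151 ± 15.1 to 103 ± 15.5 CPM. Per1 (43.3 ± 6.87 and 30.5 ± 6.56 CPM) and Bhlhe41 (6.07 ± 1.41 and 4.57 ± 0.976 CPM) were not called, although Per1 was lower in the cKOt mouse of each of the 5 batches.

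The genotype differences of Per2 and the Cry genes at ZT12 departed from their means over the other times. Per2 was at 92.5, 126, 98.5, 90.9 and 89.2 CPM in control and at 47.5, 60.4, 63.7, 58.3 and 54.6 CPM in cKOt kidneys, with no overlap. Its log2 difference was -0.77 at ZT12 against a mean of 0.07 at the other 5 times, and this departure of -0.85 was significant (adjusted p = 0.00224). The 5 differences behind that mean ranged from -0.59 at ZT8 to 0.91 at ZT0. Cry1, a direct repressor of CLOCK-BMAL1, was higher, at 30.2 ± 1.54 against 13.4 ± 2.02 CPM, but by less than at the other times (1.17 against a mean of 1.64, adjusted p of the departure 0.0212). Cry2 differed little (44.4 ± 4.54 against 39.6 ± 2.24 CPM), and its excess of 0.20 was lower than the mean of 0.60 at the other times (adjusted p = 0.000252). The departure of Cry1 was no longer called without control replicate 3, control replicate 4 or cKOt replicate 5 (adjusted p = 0.107 for the first), and the ZT12 difference of Cry2 was not called without control replicate 2 or 3 or cKOt replicate 2 or 5 (adjusted p = 0.0714 without control replicate 3).

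Of the 4 output factors, 2 were lower, 1 was higher and 1 was not called. Dbp was at 65.9, 51.2, 31.5, 47.8 and 51.4 CPM in control and at 12.5, 12.7, 17.0, 14.6 and 11.9 CPM in cKOt kidneys, so that the highest cKOt kidney held less than the lowest control. Tef fell from 544 ± 50.5 to 282 ± 28.3 CPM, by more than at the other times (departure -0.44, adjusted p = 0.00821). Hlf was at 173 ± 16.0 and 154 ± 14.1 CPM and was not called. Nfil3, which represses the same D-boxes, rose from 2.03, 1.36, 14.5, 6.32 and 1.97 CPM to 26.3, 29.4, 14.2, 24.4 and 15.1 CPM. Its groups overlapped only through control replicate 3, and its log2 difference was 2.09 with that mouse and 2.92 without it. The departure of Nfil3 from the other times was called without that mouse (1.61, adjusted p = 0.00685) and not with it (adjusted p = 0.425). Of 22 further clock-controlled genes, 4 were higher and 9 lower, with a median of -0.23. Por, the electron donor of microsomal P450 enzymes (247 ± 25.4 to 127 ± 28.2 CPM), Coq10b (97.8 ± 16.0 to 39.3 ± 1.58 CPM), the deubiquitinase Usp2 (203 ± 13.2 to 118 ± 17.2 CPM) and the cell cycle kinase Wee1 (37.1 ± 2.86 to 17.0 ± 1.49 CPM) fell, whereas the vasopressin receptor Avpr1a rose from 4.17 ± 0.359 to 12.0 ± 1.31 CPM.

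**Figure D1:**
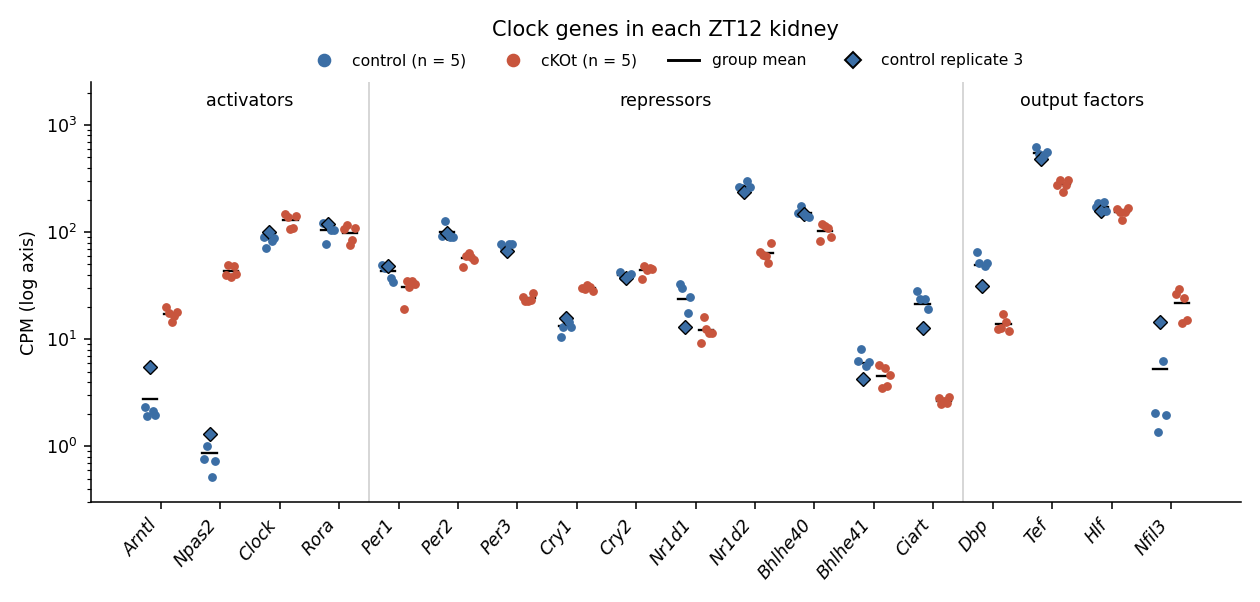
CPM (log axis) of clock activators, repressors and output factors in each ZT12 kidney, control in blue and cKOt in red, with group means as bars and control replicate 3 as diamonds. Npas2 lies between 0.517 and 1.29 CPM in control and between 38.3 and 49.4 CPM in cKOt kidneys, and for Dbp, Ciart and Nfil3 the diamond is the control nearest to the cKOt group.

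RefSeq promoter windows (GRCm38.p6, 250 bases before to 50 bases after a start) were searched on both strands for an E-box (CACGTG), a D-box (TTATGTAA) and a ROR element (TAGGTCA), elements through which the clock loops act. Before the start, Ciart, Cry1, Tef, Per1, Per3, Bhlhe41 and Nfil3 held a match, and Arntl, Npas2, Clock, Rora, Cry2, Nr1d1, Nr1d2, Dbp and Hlf held none. A window of Arntl did hold a ROR element, but not in the bases before the start. The 6 stretches shown, chosen among genes with a match, are those of 2 E-box genes that fell, 2 E-box genes that rose, the D-box gene Per3 and the ROR element gene Nfil3, each read on the strand of its gene with the matches in capitals. They lie at chr3:95882245-95882364 (Ciart, minus strand), chr15:81802526-81802573 (Tef, plus), chr10:85185087-85185134 (Cry1, minus), chr3:104638444-104638491 (Slc16a1, plus), chr4:151044796-151044890 (Per3, minus) and chr13:52981040-52981071 (Nfil3, minus).
Ciart: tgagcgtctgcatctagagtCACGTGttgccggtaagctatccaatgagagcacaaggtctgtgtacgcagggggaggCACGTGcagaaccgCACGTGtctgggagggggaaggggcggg
Tef: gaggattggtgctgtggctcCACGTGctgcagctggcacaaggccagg
Cry1: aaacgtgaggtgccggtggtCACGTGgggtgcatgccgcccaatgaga
Slc16a1: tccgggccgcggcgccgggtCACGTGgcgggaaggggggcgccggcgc
Per3: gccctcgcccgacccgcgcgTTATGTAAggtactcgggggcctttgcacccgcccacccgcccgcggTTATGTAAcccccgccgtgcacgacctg
Nfil3: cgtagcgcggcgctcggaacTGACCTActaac
Ciart holds 3 E-boxes within 120 bases and Per3 holds 2 D-boxes, while the same E-box lies before genes that fell (Ciart, Tef) and genes that rose (Cry1, Slc16a1).

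Over all 11416 tested genes matched to a window by symbol, 11.4% held an E-box, 0.753% a D-box and 2.37% a ROR element. Of the 1282 matched genes that were lower at ZT12, 14.0% held an E-box, 2.11% a D-box and 2.34% a ROR element. Of the 1201 that were higher, 10.3% held an E-box, 0.583% a D-box and 3.5% a ROR element. Among the 121 genes that fell by more than 2-fold, 11 (9.09%) held an E-box and 7 (5.79%) a D-box, Per3, Coq10b and Alb among the latter. Among the 151 that rose by more than 2-fold, 14 (9.27%) held an E-box and 8 (5.3%) a ROR element. Of the genes more negative at ZT12 than at the other times, 12 of 66 (18.2%) held an E-box, and of those more positive, 9 of 102 (8.82%). These shares are descriptions of letters in short windows and were not tested.

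Several of the genes that departed most from the mean of the other times were at their lowest or highest control level at ZT12. Cdkn1a, which encodes the cell cycle inhibitor p21, was at 3.19, 3.45, 2.36, 2.18 and 2.81 CPM in control and at 15.4, 20.6, 22.9, 28.7 and 19.4 CPM in cKOt kidneys. Its log2 difference of 2.96 was 1.44 above the mean of the other 5 times (adjusted p = 0.000927). Slc16a1, the monocarboxylate transporter MCT1, rose from 30.6 ± 4.70 to 133 ± 28.8 CPM, a log2 difference of 2.10. This was 1.19 above the mean of the other 5 times (adjusted p = 2.91e-05), but at ZT8 the difference was 2.17. Ndrg1, a stress-responsive differentiation gene, rose from 1355 ± 372 to 4211 ± 164 CPM and Dtx4, an E3 ubiquitin ligase of the Notch pathway, from 11.0 ± 5.57 to 57.8 ± 7.08 CPM, with departures of 1.02 and 1.18. Their log2 differences at ZT8, 1.58 and 2.22, were near the 1.65 and 2.40 at ZT12, and that of Cdkn1a was 2.20 at ZT8. The means of the other times include smaller differences of these genes at ZT0 and ZT20. In control kidneys Slc16a1, Ndrg1, Dtx4 and Cdkn1a each had their lowest mean of the 6 time points at ZT12, at 30.6, 1360, 11.0 and 2.80 CPM, while the cKOt means of Slc16a1 stayed between 120 and 147 CPM all day. For Ndrg1 and Dtx4 control replicate 3 (2010 and 20.6 CPM) was the control nearest to the cKOt kidneys, and the departures were larger without it (1.19 and 1.53).

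In the negative direction, Trdn, which encodes the calcium release protein triadin, was at 11.8, 9.57, 9.72, 11.0 and 4.33 CPM in control and at 0.608, 1.09, 0.397, 0.411 and 0.635 CPM in cKOt kidneys. Its difference of -3.81 departed from the mean of the other times by -2.06 (adjusted p = 0.00227), and its control mean peaked at ZT12. The uridine phosphorylase Upp2 fell from 51.5 ± 9.55 to 23.7 ± 5.93 CPM, with a departure of -0.84. Hmgcll1, a relative of the ketogenic HMG-CoA lyase, fell from 3.29 ± 0.472 to 1.63 ± 0.417 CPM. Nat8f5 fell from 92.5 ± 7.93 to 12.6 ± 5.83 CPM, and its departure of -0.99 was lost without cKOt replicate 3 (adjusted p = 0.136) or control replicate 3 (adjusted p = 0.0649). Nat8f5 belongs to a cluster of near-identical genes, so that the split of reads among them is uncertain.

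**Figure D2:**
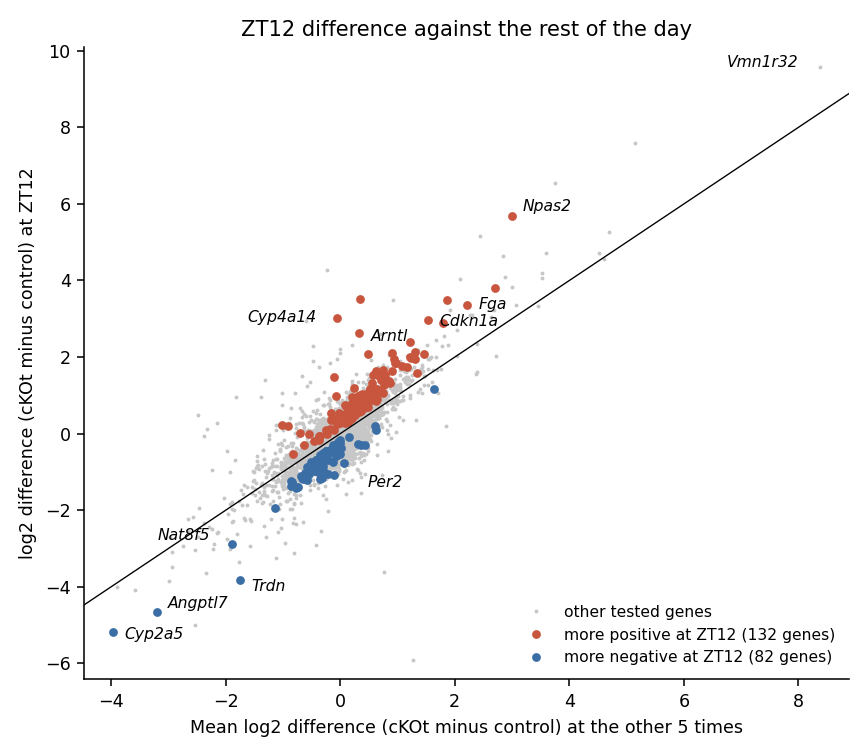
log2 difference (cKOt minus control) at ZT12 against the mean log2 difference at the other 5 time points for the tested genes, with the line of equal values. The 132 genes more positive at ZT12 (red) and the 82 more negative (blue) lie on either side of the line, Npas2 at 5.67 against 3.01 and Trdn at -3.81 against -1.75.

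**Figure D3:**
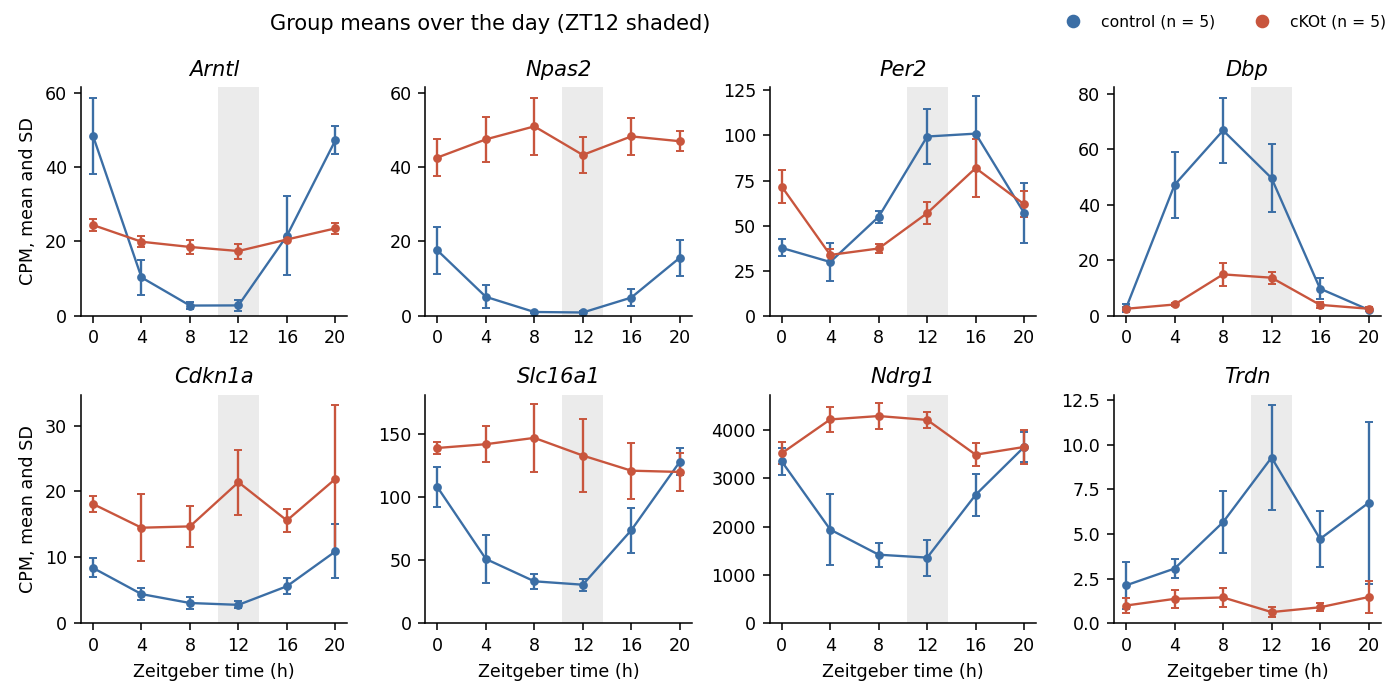
Mean CPM with SD (n = 5 mice) of 8 genes at each zeitgeber time, control in blue and cKOt in red, ZT12 shaded. Control Arntl, Npas2, Slc16a1 and Ndrg1 are low at ZT12 (2.77, 0.863, 30.6 and 1360 CPM) where the cKOt means are 17.4, 43.3, 133 and 4210 CPM, and control Trdn is highest there.

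The largest increases that did not overlap between groups included genes barely detected in the control kidney. Vmn1r32, a vomeronasal receptor gene on chromosome 6 (66552180 to 66560096, minus strand), had 0 counts in the 5 control libraries and 125, 115, 74, 95 and 96 counts in the cKOt libraries. Taking 3 counts in each control library as the level that a count of 0 allows, it was at least 31.1-fold higher. Over the whole set it had at most 2 counts in the 30 control libraries and 61 to 172 in the 30 cKOt libraries. Fhad1 had 0 to 4 counts in the control and 76 to 107 in the cKOt libraries. Hao2, a peroxisomal hydroxyacid oxidase, was the most abundant of this group, at 128, 103, 91.9, 113 and 114 CPM in control and at 1290, 1184, 1038, 1097 and 1203 CPM in cKOt kidneys (log2 difference 3.35 ± 0.14, adjusted p = 1.45e-25). The fibrinogen chains Fga (19.3 ± 1.37 to 202 ± 66.2 CPM) and Fgg (5.07 ± 0.300 to 91.1 ± 34.9 CPM) rose together. The betaine-homocysteine methyltransferase Bhmt rose from 1.05 ± 0.277 to 15.3 ± 2.20 CPM, the amino acid transporter Slc7a12 from 1.26 ± 0.625 to 31.7 ± 11.2 CPM, the water channel Aqp8 from 0.457 ± 0.283 to 8.32 ± 1.43 CPM, and the collagen cross-linking enzyme Loxl4 from 3.22 ± 0.656 to 32.0 ± 3.72 CPM. Of the 9 genes named here, only Fga rose more at ZT12 than over the other times (departure 1.13, adjusted p = 0.00891).

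The largest decreases included P450 enzymes of the Cyp2a cluster. Cyp2a5 was at 200, 249, 180, 222 and 147 CPM in control and at 6.91, 5.47, 2.93, 4.73 and 6.62 CPM in cKOt kidneys, a log2 difference of -5.17 ± 0.31. Its neighbour Cyp2a4 fell from 620 ± 107 to 55.0 ± 5.30 CPM. The sequences of Cyp2a4 and Cyp2a5 are nearly identical and reads that aligned to more than 1 place were not counted, so that the level of each is uncertain. Angptl7, a secreted angiopoietin-like protein, fell from 32.6 ± 11.7 to 1.18 ± 0.385 CPM. The synaptic genes Anks1b (6.45 ± 1.48 to 0.377 ± 0.152 CPM) and Synpr (29.2 ± 10.6 to 1.99 ± 1.38 CPM), the plasma glycoprotein Hrg (6.45 ± 1.44 to 0.745 ± 0.346 CPM), the AMP kinase subunit Prkag3 (14.5 ± 2.38 to 1.76 ± 0.513 CPM) and the matrix link protein Hapln1 (5.37 ± 1.66 to 0.660 ± 0.194 CPM) also fell without overlap. The departure of Cyp2a5 from the rest of the day (-1.20) was lost without cKOt replicate 3 (adjusted p = 0.173) or control replicate 3 (adjusted p = 0.0543), and that of Angptl7 (-1.46) without control replicate 3 (adjusted p = 0.0799).

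Of 42 tested genes of xenobiotic metabolism, the Cyp2a genes among them, 6 were higher, 15 lower and 21 not called, with a median of -0.20. The carboxylesterase Ces1d was at 561, 446, 555, 526 and 476 CPM in control and at 75.7, 81.4, 38.3, 85.0 and 58.9 CPM in cKOt kidneys. The glutathione transferase Gsta3 fell from 103 ± 12.7 to 36.9 ± 5.77 CPM, and Por, which supplies the electrons for the P450 enzymes, fell as given above. Neither Ces1d nor Gsta3 departed from its mean difference at the other times. Of 11 androgen-dependent kidney genes, 9 were lower and 1 higher, with a median of -0.71. Odc1, the ornithine decarboxylase of polyamine synthesis, fell from 2768 ± 541 to 1075 ± 127 CPM, Gusb, a lysosomal glucuronidase, from 118 ± 27.3 to 56.4 ± 3.68 CPM, and the P450 genes Cyp4b1 from 3304 ± 458 to 1714 ± 105 CPM and Cyp2j13 from 546 ± 86.7 to 334 ± 54.4 CPM. Cyp7b1, a steroid hydroxylase, was the member that rose, from 285 ± 39.0 to 464 ± 82.2 CPM.

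Genes of fatty acid handling were called in both directions. Of 17 genes of fatty acid uptake and activation, 5 were higher and 8 lower, with a median of -0.18. Among the proteins of uptake, Cd36, the fatty acid translocase, was at 1206, 1157, 1161, 1565 and 1050 CPM in control and at 920, 862, 507, 750 and 889 CPM in cKOt kidneys. The transporter Slc27a2 fell from 4978 ± 523 to 3802 ± 183 CPM and Fabp3, an intracellular carrier, from 42.6 ± 4.00 to 23.3 ± 2.19 CPM. The activating enzymes Acsl1 (210 ± 22.1 to 420 ± 72.7 CPM) and Acsl5 (79.5 ± 8.82 to 115 ± 8.39 CPM) rose. The rise of Acsl1 was 0.67 above the mean of the other times (adjusted p = 4.02e-05). Without cKOt replicate 3 the list held 3 higher and 8 lower members.

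In mitochondrial fatty acid oxidation, 8 of 28 tested genes were higher and 10 lower, with a median of -0.03, and peroxisomal oxidation had 4 higher and 13 lower of 35 (median -0.10). Acadl, the long-chain acyl-CoA dehydrogenase, was at 449, 439, 391, 497 and 415 CPM in control and at 302, 289, 348, 284 and 308 CPM in cKOt kidneys (log2 difference -0.54 ± 0.06, adjusted p = 9.43e-10). Cpt1a, which commits fatty acids to the mitochondrion, fell from 680 ± 55.5 to 539 ± 59.4 CPM without overlap. Slc25a20, the carnitine-acylcarnitine carrier, stood at 61.6, 62.1, 58.0, 64.8 and 55.6 CPM in control and at 33.8, 39.2, 72.0, 36.3 and 38.3 CPM in cKOt kidneys. All cKOt mice but replicate 3 were below the controls, and the log2 difference was -0.47 with that mouse and -0.72 without it. Cpt2 (-0.26 and -0.40) and Crat (-0.28 and -0.39), which pass acyl groups to and from carnitine, also differed more without it. The difference of Cpt2 was not called without control replicate 1 or 4, or without any single cKOt mouse but replicate 3. Acads, the short-chain dehydrogenase, was lower (167 ± 35.6 to 123 ± 35.5 CPM) and Acad12 (54.3 ± 2.60 to 63.9 ± 4.59 CPM) and the thioesterase Acot2 (8.34 ± 0.627 to 13.7 ± 5.41 CPM) higher, and the groups of Acads and Acad12 overlapped. Without cKOt replicate 3, 5 mitochondrial members were higher and 10 lower, and without control replicate 3 the numbers were again 5 and 10. In a fit of the ZT12 samples alone, 2 were higher and 2 lower, and with a batch block in that fit none was higher and 3 were lower. In the peroxisome, Pipox (554 ± 30.6 to 431 ± 48.5 CPM), Phyh, the phytanic acid hydroxylase (961 ± 110 to 646 ± 53.8 CPM), and catalase (Cat, 1145 ± 106 to 847 ± 48.5 CPM) fell without overlap and the thiolase Acaa1a (85.9 ± 13.2 to 61.1 ± 11.7 CPM) fell with overlap.

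PPARα is the nuclear receptor that induces fatty acid oxidation and ketogenesis in fasting. Of 27 tested PPAR receptors and targets, 7 were higher and 9 lower, with a median of -0.22. Ppara itself fell from 86.5 ± 8.10 to 65.6 ± 5.17 CPM, whereas Ppard, which encodes the related receptor PPARδ, rose from 10.1, 9.51, 11.3, 7.92 and 9.90 CPM to 49.7, 88.6, 77.4, 113 and 62.3 CPM (log2 difference 3.10 ± 0.22). The uncoupling protein Ucp2 fell from 103 ± 15.2 to 40.0 ± 17.9 CPM and malic enzyme (Me1) from 793 ± 65.0 to 655 ± 23.2 CPM. Cyp4a12a, an ω-hydroxylase that is also androgen-dependent, fell from 166 ± 45.9 to 34.2 ± 17.2 CPM. It has a near-identical copy and its level is uncertain.

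The calls of the increases of Cyp4a14 and Fabp1 rested on 1 mouse, and other genes named here shifted with that mouse. Cyp4a14, a fatty acid ω-hydroxylase, was at 17.1, 8.04, 5.57, 11.4 and 18.2 CPM in control and at 32.3, 32.1, 614, 30.3 and 27.9 CPM in cKOt kidneys, where the outlying value is that of replicate 3. With all 5 mice its log2 difference was 3.01 (adjusted p = 0.000863), and without cKOt replicate 3 it was 1.34 and not called (adjusted p = 0.127). Its departure from the other times, 3.07, was not called without this mouse (adjusted p = 0.421) or without control replicate 3 (adjusted p = 0.0728). Fabp1, a fatty acid carrier, was at 5.36 CPM in this kidney and at 0.308 to 0.741 CPM in the other cKOt kidneys, and its difference was not called without it (adjusted p = 0.322). Cyp4a10 (692 CPM against 152 to 208 CPM) and Acot1 (52.3 against 13.4 to 18.2 CPM) were not called at ZT12, and their log2 differences turned from 0.22 and 0.21 to -0.33 and -0.26 without it. Their departures from the other times, 1.23 and 1.12, became 0.70 and 0.66 without it and were not called (adjusted p = 0.252 and 0.0776). Angptl4, an inhibitor of lipoprotein lipase, was within the control range in this kidney (36.1 CPM, controls 28.4 to 39.8 CPM) and at 4.63 to 15.0 CPM in the other 4, and its log2 difference of -1.35 became -2.0. Fabp1, Cyp4a10, Acot1 and Angptl4 were chosen after their values were seen. Without cKOt replicate 3 the PPAR list had 5 members higher and 10 lower. The median of the list turned to 0.08 without cKOt replicate 4 and to 0.02 without cKOt replicate 2.

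**Figure D4:**
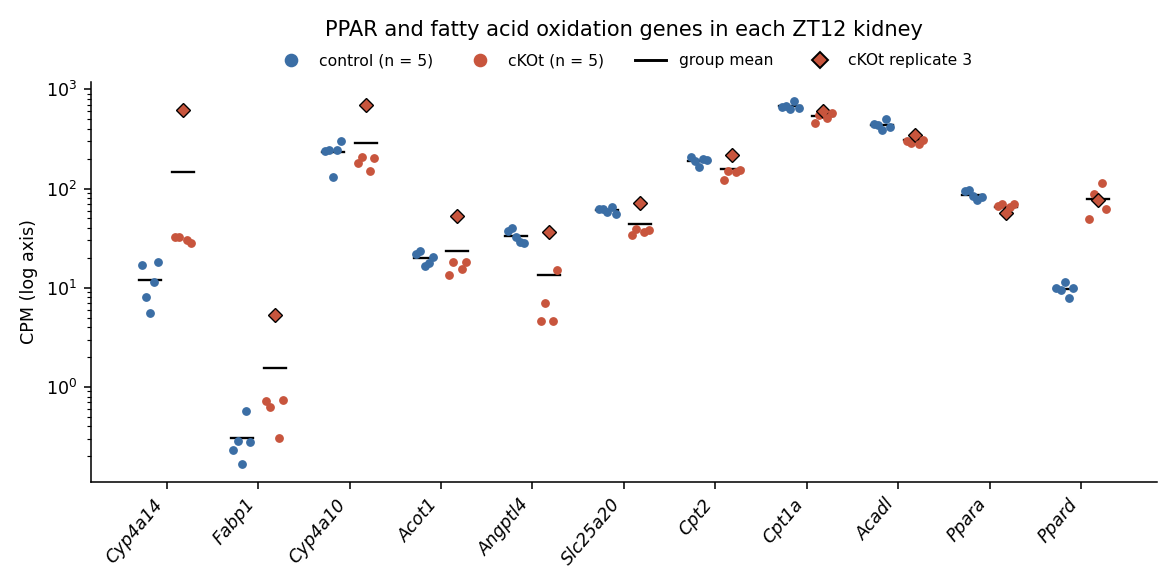
CPM (log axis) of PPAR and fatty acid oxidation genes in each ZT12 kidney, control in blue and cKOt in red, with group means as bars and cKOt replicate 3 as diamonds. The diamond is at 614 CPM for Cyp4a14 and 692 CPM for Cyp4a10, above the other cKOt kidneys, while for Ppara and Ppard it lies among or near them.

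Of 11 tested genes of carnitine synthesis and transport, 4 were lower and 1 higher, with a median of 0.01. Slc22a5, the carnitine transporter OCTN2, was at 340, 336, 318, 380 and 308 CPM in control and at 139, 167, 249, 167 and 206 CPM in cKOt kidneys, with no overlap. Aldh9a1, which makes the last carnitine precursor, fell from 604 ± 42.9 to 396 ± 22.4 CPM and the carnitine transporter Slc16a9 from 325 ± 17.8 to 246 ± 29.5 CPM. Shmt1, a serine hydroxymethyltransferase, rose from 50.3 ± 5.09 to 77.3 ± 3.22 CPM, by 0.31 more than at the other times (adjusted p = 0.0154). That departure was not called without control replicate 1, control replicate 3 or cKOt replicate 4 (adjusted p = 0.0509 without control replicate 3).

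Of 31 genes of NAD synthesis and use, 4 were higher, 5 lower and 22 not called, so that 29.0% were called against 21.0% of all genes. Nampt, the rate-limiting enzyme of NAD salvage, was at 286, 292, 283, 342 and 311 CPM in control and at 217, 178, 129, 161 and 184 CPM in cKOt kidneys, with no overlap. Its log2 difference of -0.86 was 0.28 below the mean of the other times (adjusted p = 0.00546). This departure was not called without the RUVs factors, and departures of other named genes were lost in that fit as well. Nmrk1, the nicotinamide riboside kinase, was at 140, 136, 167, 202 and 129 CPM in control and at 101, 106, 91.1, 92.5 and 92.2 CPM in cKOt kidneys. Nadk, the NAD kinase, fell from 230 ± 14.0 to 178 ± 14.3 CPM and Afmid, the formamidase of the de novo pathway, from 25.4 ± 5.77 to 16.1 ± 3.42 CPM with overlap. Among the enzymes of nucleosides, Nt5e and Pnp rose. Nt5e, the ecto-5'-nucleotidase CD73, was at 115, 174, 153, 143 and 128 CPM in control and at 298, 321, 360, 414 and 399 CPM in cKOt kidneys. Its log2 difference was 0.77 above the mean of the other times (adjusted p = 0.000691). Pnp, the purine nucleoside phosphorylase, rose from 41.0 ± 1.98 to 59.1 ± 5.66 CPM at ZT12 and differed little elsewhere (mean of 0.08, adjusted p of the departure 0.000115). Kmo, of the de novo pathway, rose from 197 ± 25.1 to 269 ± 26.4 CPM, by as much as at the other times (0.43 against a mean of 0.41).

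Of 32 genes of sodium and potassium transport 5 were higher and 7 lower (median 0.01). The Na,K-ATPase subunit Atp1b1 (2892 ± 255 to 2419 ± 114 CPM) and the potassium channel Kcnj15 (1943 ± 173 to 1550 ± 124 CPM) fell without overlap, as did the scaffold NHERF1 (Slc9a3r1, 198 ± 19.4 to 138 ± 17.0 CPM), and the ubiquitin ligase subunit Cul3 fell with overlap (223 ± 21.3 to 192 ± 20.7 CPM). Of 12 water transport genes 3 were higher and 5 lower. The aquaporins that fell were Aqp4, at 55.2, 37.3, 36.5, 34.3 and 44.5 CPM in control and at 29.4, 17.7, 20.4, 17.5 and 16.2 CPM in cKOt kidneys, Aqp6 (38.5 ± 3.31 to 23.8 ± 4.93 CPM), Aqp11 (58.0 ± 5.03 to 44.6 ± 1.72 CPM), Aqp3 (55.9 ± 5.45 to 41.5 ± 8.13 CPM) and Aqp1.

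Of 27 genes of phosphate, calcium and magnesium handling, 9 were higher and 3 lower (median 0.06). The paracellular channel Cldn10 was at 168, 173, 153, 167 and 171 CPM in control and at 259, 276, 260, 234 and 231 CPM in cKOt kidneys, and this rise was 0.39 above the mean of the other times (adjusted p = 0.00227). The vitamin D receptor Vdr rose from 267 ± 12.8 to 359 ± 43.9 CPM at ZT12, where the mean of the other times was 0.05 (adjusted p of the departure 0.0164, but 0.0666 without cKOt replicate 3 and 0.0543 without control replicate 1), and the magnesium channel Trpm6 from 18.2 ± 2.43 to 28.1 ± 1.39 CPM. Cyp27b1, which activates vitamin D, fell from 8.84 ± 3.49 to 3.46 ± 1.93 CPM with overlap. Umod, uromodulin of the thick ascending limb, fell from 3085 ± 312 to 2268 ± 206 CPM. Among 39 carriers of glucose, amino acids and organic ions, 11 were higher and 6 lower (median 0.10), with the neutral amino acid carrier Slc6a18 rising from 522 ± 44.0 to 834 ± 28.4 CPM and the organic anion transporters Slc22a8 (382 ± 50.3 to 196 ± 46.2 CPM) and Slco1a6 (434 ± 39.7 to 280 ± 40.7 CPM) falling.

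Of 17 heat shock and cold-inducible genes, 9 were lower and none higher (median -0.25). Of 24 genes of endoplasmic reticulum folding, 7 were lower and none higher (median -0.25). The called shares were 52.9% and 29.2%, against 21.0% of all tested genes. Herpud1, of ER-associated degradation, was at 329, 362, 327, 308 and 300 CPM in control and at 155, 191, 182, 182 and 182 CPM in cKOt kidneys. The ER co-chaperone Dnajb9 fell from 65.1 ± 3.42 to 48.5 ± 4.55 CPM and the cytosolic chaperone Hsph1 from 221 ± 76.3 to 124 ± 28.2 CPM, where control replicate 2 was at 356 CPM and the other controls at 173 to 208 CPM. These counts varied with the mice included. Without control replicate 2 they were 3 and 4, without cKOt replicate 2 the heat shock count was 5, and without control replicate 5 or cKOt replicate 3 the ER count was 13 or 12. Of 20 glucocorticoid-responsive genes, 2 were higher and 5 lower. Hsd11b1, which regenerates corticosterone, fell from 340 ± 67.2 to 86.1 ± 9.89 CPM. The 5 lower became 3 without control replicate 3 or cKOt replicate 3.

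Of 14 proximal tubule markers, 8 were lower and none higher, with a median of -0.21, and the summed level was 59200 to 68400 CPM in control and 48400 to 59500 CPM in cKOt kidneys, with a narrow overlap. Miox, the myo-inositol oxygenase, was at 1186, 1389, 1281, 1186 and 1380 CPM in control and at 448, 629, 1004, 720 and 702 CPM in cKOt kidneys. Cyp2e1 fell from 2238 ± 379 to 1303 ± 254 CPM and the dicarboxylate carrier Slc13a3 from 608 ± 74.2 to 386 ± 62.9 CPM, whereas Lrp2, Cubn and Slc34a1 were not called. In tissue pieces, fewer cells of a type and less RNA per cell cannot be told apart, and the part of this shift in the falls of fatty acid, carnitine and xenobiotic genes given above was not tested. None of 6 podocyte and none of 8 fibroblast and mural markers was called, with summed levels of 199 to 308 CPM in control and 215 to 338 CPM in cKOt kidneys for the latter. Of 10 macrophage and MHC class II markers, 4 genes of MHC class II antigen presentation were lower, among them H2-Ab1 (37.2 ± 4.26 to 26.8 ± 3.83 CPM), and this became 1 without control replicate 5 or cKOt replicate 5.

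**Figure D5:**
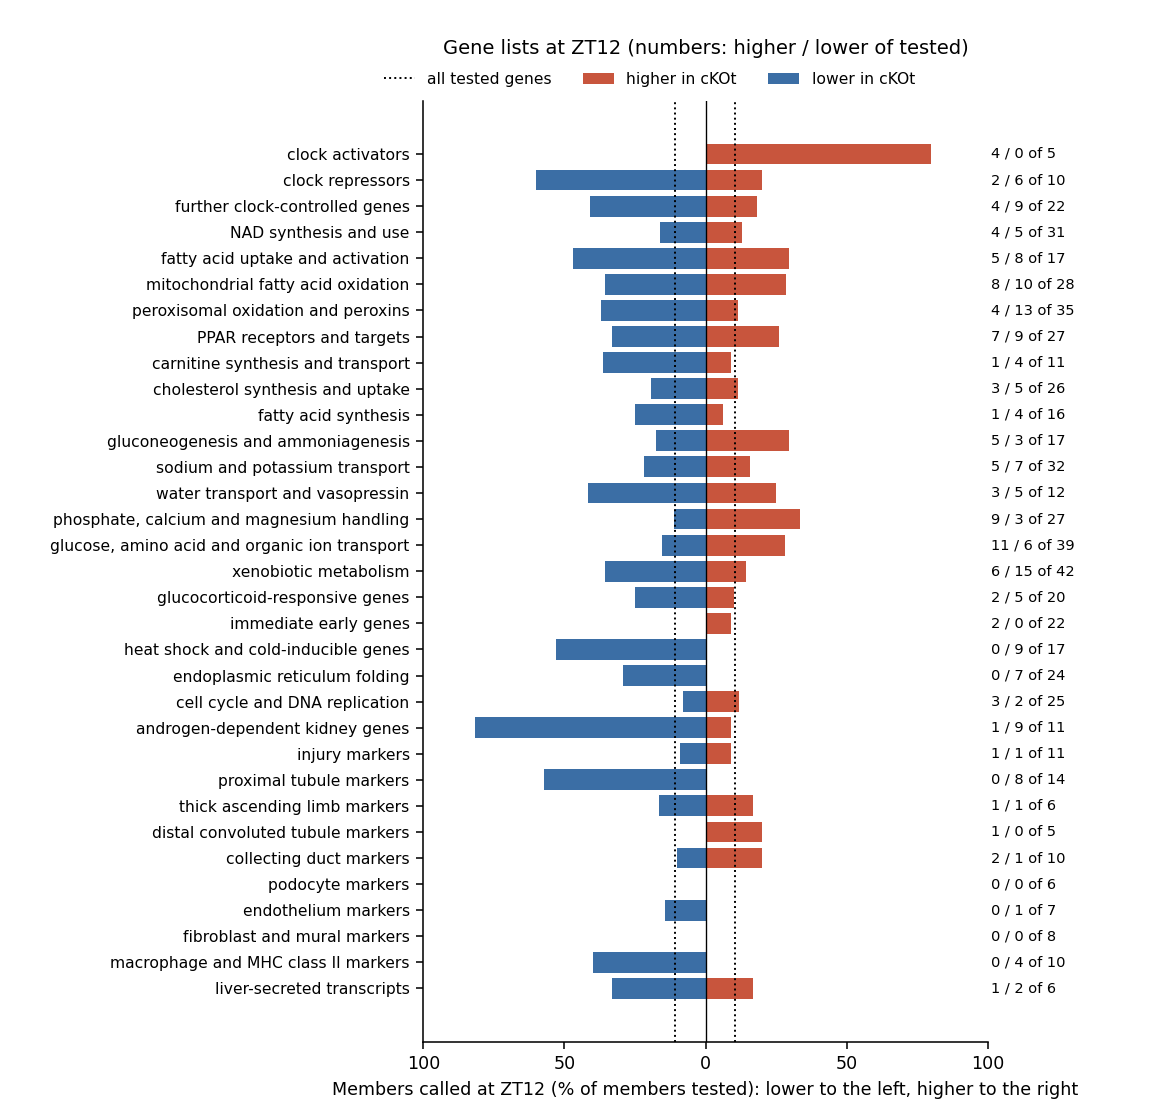
Share of the tested members of each list called higher (red, to the right) or lower (blue, to the left) in cKOt kidneys at ZT12, with the shares over all tested genes (10.3% and 10.8%) as dotted lines. Lists with fewer than 5 tested members are not drawn. Clock activators (4 of 5 higher), androgen-dependent genes (9 of 11 lower), clock repressors (6 of 10 lower) and proximal tubule markers (8 of 14 lower) lie far from the dotted lines, and the NAD list (4 higher and 5 lower of 31) lies nearer to them.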

How the data were processed

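RNA of kidney pieces was sequenced from poly(A)-selected, stranded TruSeq libraries as single reads on an Illumina HiSeq instrument. The values are gene counts deposited by the authors, who trimmed reads with cutadapt 1.8, aligned them to GRCm38 with STAR 2.5.3a and counted them with HTSeq 0.9.1. The annotation release and the strand setting of the counting are not given in the sources used here. Reads aligned to more than 1 place (24.5 to 27.6% at ZT12) were not counted to genes. The authors kept 5 mice per group from a larger number by RNA quality and clustering. Samples were grouped by the genotype and time in their labels, and nothing in the labels says that 2 samples came from 1 mouse.

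The counts of all 60 samples in 12 groups were fitted with edgeR 4.0.16 in R 4.3.3 (TMM normalization, quasi-likelihood test) with 2 RUVs factors of unwanted variation, over the 15546 genes that reached 1 CPM in any of them. The first contrast was cKOt minus control at ZT12, and the second was this difference minus the mean difference of the other 5 times. P-values were adjusted by Benjamini-Hochberg over all tested genes, with a threshold of 0.05. CPM values are scaled by the normalized library size and are not corrected by the RUVs factors. Values with ± are means and SD over 5 mice, and log2 differences are fitted values with SE. The fit was also run on counts simulated with the same dispersion for all genes and no unwanted variation. That run does not test the RUVs factors. Alternatives used limma 3.58.1, DESeq2 1.42.0, other filters, other covariates and the omission of each mouse.

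The named genes were the clock genes, the 10 largest non-overlapping increases and decreases at ZT12, the 8 largest departures in each direction from the other times, up to 5 called members of each list, and genes of NAD, fatty acid, PPAR and carnitine metabolism, of which those that carry the results are described. The members and lists were chosen with earlier results of these data known. Results for some genes that met this rule are not reported here.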

Additional observations from a re-analysis of the deposited data

Results flagged for a closer look

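Among 128 named genes, 256 groups of 5 mice were examined for a single mouse set apart from the rest, and 17 (6.64%) were found. Chance gives about 1 in 20 for genes chosen without regard to their values. Fabp1, Cyp4a10, Acot1 and Angptl4 were chosen after their values were seen, so this share cannot be set against chance. In control kidneys, replicate 3 was set apart for Arntl (5.51 CPM, others at most 2.32 CPM), Dtx4 (20.6 CPM) and Ndrg1 (2010 CPM). Replicate 2 was high for Per2 (126 CPM) and Hsph1 (356 CPM), replicate 1 for Aqp3 (65.3 CPM), and replicate 4 for Cyp7b1 (352 CPM) and Fabp1 (0.574 CPM). In cKOt kidneys, replicate 3 was high for Cyp4a14 (614 CPM), Cyp4a10 (692 CPM), Acot1 (52.3 CPM), Fabp1 (5.36 CPM), Slc25a20 (72 CPM) and Wee1 (19.6 CPM), and low for Slc16a9 (195 CPM) and Cyp2j13 (238 CPM). Replicate 1 was low for Herpud1 (155 CPM). Over 13754 genes, control replicate 4 was the mouse most often set apart, as the highest for 300 and the lowest for 122 genes, followed by cKOt replicate 3 with 140 and 87.

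The difference at ZT12 departed from the mean difference of the other 5 times for 36 named genes, by the second contrast of the fit. Some of the named genes were chosen for their large departures in this same contrast. The count of 36 was thus partly set by that choice and cannot be compared with the 214 (1.38%) of all tested genes. The log2 departures of clock genes were 2.31 for Arntl, 2.66 for Npas2, -0.847 for Per2, -0.467 for Cry1, -0.404 for Cry2 and -0.443 for Tef. At ZT8 alone the log2 differences of Arntl and Npas2, 2.78 and 5.62, were near those at ZT12 (2.64 and 5.67). Among further clock-controlled genes they were -0.321 for Por, -0.526 for Coq10b, 0.741 for Avpr1a and -0.428 for Usp2. Of the genes with the largest changes, the departure was 1.13 for Fga, -1.2 for Cyp2a5, -1.46 for Angptl7, -2.06 for Trdn, 3.07 for Cyp4a14, 1.44 for Cdkn1a, 1.19 for Slc16a1, 1.18 for Dtx4 and 1.02 for Ndrg1. It was -0.986 for Nat8f5, -0.842 for Upp2, -0.83 for Hmgcll1 and 1.6 for Myc. In NAD metabolism it was -0.281 for Nampt, 0.767 for Nt5e, 0.423 for Pnp and -0.483 for Nmrk1. In lipid and carnitine metabolism it was 0.669 for Acsl1, 0.278 for Acadl, 0.64 for Acot2, 1.23 for Cyp4a10, 1.12 for Acot1 and 0.313 for Shmt1. In transport it was -0.242 for Slc9a3r1, 0.392 for Cldn10 and 0.389 for Vdr. The departures of Acadl, Acot2, Cyp4a10 and Acot1 were not called without cKOt replicate 3 (adjusted p = 0.135, 0.317, 0.252 and 0.0776), nor those of Acadl, Acot2 and Cyp4a10 without control replicate 3 (adjusted p = 0.0842, 0.0662 and 0.0746). That of Nmrk1 was not called without cKOt replicate 3 (adjusted p = 0.058) or control replicate 3 (adjusted p = 0.113). Leaving out at least 1 mouse other than these also ended the call of the departures of Acadl, Acot2, Angptl7, Coq10b, Cry1, Cyp2a5, Cyp4a14, Nat8f5, Nmrk1, Shmt1, Usp2 and Vdr.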

How the results depend on the processing

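The number of genes called at ZT12 was 3271. It fell to 1518 when the ZT12 samples were fitted alone and to 1308 with a batch block in that fit. In fits of all samples it was 2275 without the RUVs factors and 2387 with batch in their place. It was 2904 to 3117 when each mouse was left out in turn. The list members called fell from 239 to 147 in both fits of ZT12 samples alone. Fitted alone, the lower members fell to 2 of 17 for heat shock genes, 2 of 28 for mitochondrial fatty acid oxidation and 3 of 14 for proximal tubule markers, and the higher members of mitochondrial fatty acid oxidation fell from 8 to 2. With a batch block in that fit, none of the latter was higher, and the higher members fell from 7 to 2 for PPAR receptors and targets and from 9 to 4 for phosphate, calcium and magnesium handling. In the fit of all samples without RUVs factors, 4 of 17 heat shock genes, 6 of 14 proximal tubule markers and 3 of 20 glucocorticoid-responsive genes were lower. The 214 departures from the other times became 85 without RUVs factors and 94 with batch in their place. Among named genes, 9 departures were lost in the former fit and 10 in the latter. The departures numbered 158 without a filter and 286 with DESeq2. Leaving out each mouse gave 139 to 205, with the lowest count without control replicate 3. No gene called both in the main fit and in an alternative had the opposite sign there, and the signs of genes that lost their call were not counted. Among named genes, neither Cyp4a10 nor Acot1 was called, with log2 differences of -0.333 to 0.369 and -0.262 to 0.346 when each mouse was left out, the negative ones without cKOt replicate 3, and Per1 (-0.518, edgeR adjusted p = 0.0122) was called only with ZT12 samples alone and a batch block. Of the other comparisons of named genes at ZT12, 2746 stayed on their side of the threshold and 45 lost their call, and against the other times 606 stayed and 78 lost it. The causes were not tested.

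Mice with the same replicate number did not deviate together (correlations -0.208 to 0.023 over 5 pairs), so the numbers do not pair the samples. A replicate block gave 3222 called genes and 202 departures. Depth limits genes such as Vmn1r32 and Fhad1, which are at 0 to 4 counts in control libraries. Counting over whole genes, the unstated strand setting and the omission of reads with several places limit what can be said of the deletion, of antisense genes and of near-identical genes.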

Other observations

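Of 26 genes of cholesterol synthesis and uptake, 3 were higher and 5 lower, with a median of -0.14. The called share was 30.8%, against 21.0% of all tested genes. Idi1, an isomerase of the isoprenoid pathway, was at 17.4, 18.6, 16.6, 22.1 and 14.3 CPM in control and at 37.9, 32.4, 32.9, 28.3 and 39.4 CPM in cKOt kidneys, with no overlap, whereas Sc5d, of a late step of sterol synthesis, fell from 84.8 ± 12.1 to 67.0 ± 6.73 CPM. The 5 lower became 3 without control replicate 4 or cKOt replicate 5. Of 16 genes of fatty acid synthesis, 1 was higher and 4 were lower (31.2% called), and the latter became 2 without control replicate 4. The higher member was not called without cKOt replicate 3. In gluconeogenesis and ammoniagenesis, 5 of 17 were higher and 3 lower (median 0.12). Glud1, which releases ammonia from glutamate, rose from 600 ± 45.5 to 822 ± 103 CPM without overlap, and Slc38a3, the glutamine transporter of the proximal tubule, rose from a mean of 37.7 to 73.2 CPM with overlap. Ldhb, a lactate dehydrogenase subunit, fell from 1053 ± 18.8 to 842 ± 66.6 CPM.

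Among 22 immediate early genes, 2 were higher and none was lower, so that 9.09% were called against 21.0% of all tested genes. Ier5 was at 5.69, 8.27, 6.30, 5.11 and 6.80 CPM in control and at 20.3, 16.5, 11.9, 17.1 and 9.69 CPM in cKOt kidneys. Myc, a transcription factor of growth, was at 2.32, 2.21, 3.43, 1.67 and 2.25 CPM in control and at 11.3, 8.86, 9.44, 16.7 and 2.12 CPM in cKOt kidneys. All cKOt kidneys but replicate 5 were above the controls for Myc. Without control replicate 5, 2 immediate early genes were lower. Of 25 cell cycle and DNA replication genes, 3 were higher and 2 lower, and of 11 injury markers 1 was higher and 1 lower. The called shares of these lists, 20.0% and 18.2%, were no larger than the 21.0% of all tested genes. Among other cell markers, 1 of 6 genes of the thick ascending limb was higher and 1 lower (33.3% called). In the distal convoluted tubule 1 of 5 was higher (20.0%), and in the collecting duct 2 of 10 were higher and 1 lower (30.0%). The 2 collecting duct genes that were higher were not called without control replicate 1, control replicate 3 or cKOt replicate 4. Of 7 endothelial markers 1 (14.3%) was lower, which was not called without control replicate 3, 4 or 5 or cKOt replicate 2, 4 or 5. Of 4 T cell markers 1 was lower, and neither of 2 B cell nor of 2 red blood cell transcripts was called. Of 6 liver-secreted transcripts, 1 was higher and 2 were lower, and the higher one was not called without cKOt replicate 3 or control replicate 2.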
